A study of Arabidopsis thaliana with 8 samples.

Results

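The AP2-like floral repressors of *Arabidopsis thaliana* described here comprise 6 loci: *SMZ* (AT3G54990), *SNZ* (AT2G39250), *TOE1* (AT2G28550, listed by RefSeq as *RAP2.7*), *TOE2* (AT5G60120), *TOE3* (AT5G67180) and *AP2* (AT4G36920). They are 6 of 27444 protein-coding genes on the nuclear chromosomes of TAIR10.1 as annotated by RefSeq. The loci were selected on gene identity, and proposed with the peak positions and fold enrichments of these libraries in view, so the presence of peaks at them is a description and was not tested. At each locus a window ran from 5000 bp upstream of the gene start to 1000 bp downstream of the gene end, and every peak that touched the window was taken.

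Chromatin binding of CONSTANS (CO), the transcriptional regulator through which long days activate *FT*, was profiled by ChIP-seq in *SUC2::CO:CIT aba1-6* and in *SUC2::CO:CIT* seedlings. Each genotype gave 2 ChIP libraries and 2 input libraries, labelled as biological replicates. Both genotypes are Col-0 and carry the same transgene of 1 line (#5), in which the *SUC2* promoter, active in phloem companion cells, drives CO fused to the fluorescent protein citrine, and the fusion was pulled down with GFP-Trap nanobodies. *SUC2::CO:CIT aba1-6* carries in addition a mutant allele of *ABA1*, which encodes zeaxanthin epoxidase, an early enzyme of abscisic acid synthesis. Whole seedlings (5 g fresh weight per library) grown under 16 h light and 8 h dark were harvested at ZT12, so the cell type in which a locus was bound is not resolved and the protein measured is that of the transgene.

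The proteins of this clade carry a pair of AP2 DNA-binding domains. *SMZ*, *SNZ*, *TOE1*, *TOE2* and *TOE3* are known as repressors of flowering that act on *FT*, while *AP2* is best known for specifying sepals and petals and also delays flowering. All are silenced by the microRNA miR172, whose level goes up with plant age, and TOE1 and TOE2 are known to bind the CO protein itself.

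The members have the miR172 site in common, a feature that the choice of windows did not use. Mature miR172a is encoded at chr2:11942918-11942938 (minus strand, TAIR10.1), and its bases 2 to 8, the seed, are in capitals below. The best match to its complement in the spliced transcripts of each member is shown under it, 5′ to 3′ on the strand of the gene, with every letter that is complementary to miR172a in capitals. All 6 sites were 21 bases long, lay within 1 exon and were coding.
miR172a: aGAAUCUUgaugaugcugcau
*SMZ* chr3:20373774-20373794, minus strand: tTGCAGCATCATCAgGATTCc
*SNZ* chr2:16389066-16389086, minus strand: tTGtAGCATCATCAgGATTCc
*TOE1* chr2:12226233-12226253, minus strand: caGCAGCATCATCAgGATTCT
*TOE2* chr5:24210889-24210909, plus strand: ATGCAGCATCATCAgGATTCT
*TOE3* chr5:26802175-26802195, minus strand: tgGCAGCATCATCAgGATTCT
*AP2* chr4:17403019-17403039, plus strand: cTGCAGCATCATCAgGATTCT

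Against miR172a, the site of *TOE2* matched at 20 of 21 letters, that of *AP2* at 19, those of *SMZ*, *TOE1* and *TOE3* at 18 and that of *SNZ* at 17. Mature miR172c, miR172d-3p and miR172e-3p differ from miR172a in the first or last base, so this order holds for miR172a only. All 6 sites share the unmatched letter inside the site, and they differ among themselves mainly at the ends. Between the encoded proteins, identity over aligned residues was highest for SMZ and SNZ (65.5%) and for TOE3 and AP2 (63.1%), and lowest for SNZ and TOE1 (42.6%).

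The sequences under the shared peaks are given as a description. The 3 strongest peaks found in both *SUC2::CO:CIT* replicates, one each at *SMZ*, *TOE1* and *AP2*, lie in AT-rich stretches. Of all 10 shared peaks, 5 hold TGTG, the core through which CO is known to contact DNA, on either strand. All 5 are among the 7 weaker ones, which were set apart after their heights were seen. Around the single summits of all peaks in each library, not midpoints, TGTG was found at 35.0% in replicate 1 and 35.4% in replicate 2. For the 8 shared peaks outside untranslated regions, the 100 bp around the midpoint of the replicate summits are printed 5′ to 3′ on the strand of the gene (TAIR10.1), with TGTG and its reverse complement CACA in capitals.
*SMZ* upstream, chr3:20377867-20377966, minus strand: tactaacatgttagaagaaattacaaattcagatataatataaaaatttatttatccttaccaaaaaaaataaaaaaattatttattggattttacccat
*TOE1* upstream, strongest, chr2:12232315-12232414, minus strand: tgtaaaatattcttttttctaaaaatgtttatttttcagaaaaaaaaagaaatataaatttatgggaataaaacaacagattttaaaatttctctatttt
*AP2* upstream, strongest, chr4:17396901-17397000, plus strand: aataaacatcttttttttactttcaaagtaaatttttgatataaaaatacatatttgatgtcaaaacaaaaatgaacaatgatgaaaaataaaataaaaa
*SMZ* intron, chr3:20375710-20375809, minus strand: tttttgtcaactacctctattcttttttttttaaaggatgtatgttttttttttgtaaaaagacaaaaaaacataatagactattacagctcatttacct
*TOE1* upstream, nearest to the gene, chr2:12231506-12231605, minus strand: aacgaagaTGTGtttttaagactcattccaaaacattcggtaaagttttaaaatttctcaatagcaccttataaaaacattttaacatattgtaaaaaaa
*TOE1* upstream, farthest from the gene, chr2:12233449-12233548, minus strand: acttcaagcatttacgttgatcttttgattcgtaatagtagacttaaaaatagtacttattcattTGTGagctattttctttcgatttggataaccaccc
*AP2* upstream, weakest, chr4:17398372-17398471, plus strand: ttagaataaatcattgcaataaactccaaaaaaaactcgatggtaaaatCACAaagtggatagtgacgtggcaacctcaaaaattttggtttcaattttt
*AP2* transcribed region, chr4:17401525-17401624, plus strand: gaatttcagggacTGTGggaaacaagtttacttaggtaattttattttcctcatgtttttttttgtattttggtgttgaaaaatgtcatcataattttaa

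The windows of the strongest *SMZ*, *TOE1* and *AP2* peaks had 17%, 15% and 15% GC, and those of the 7 weaker shared peaks had 22% to 31%. None of the 3 strongest windows holds TGTG or CACA. Of the weaker ones, neither the *SMZ* intron window (23% GC) nor the one at the *AP2* gene start (22% GC, not printed) holds the word, whereas the *TOE1* window in the 3′ untranslated region (24% GC, not printed) holds it at 2 positions. The word also depends on where the window is centred. Around the replicate 2 summits, the *SMZ* intron peak holds it, whereas the *TOE1* peak at −2889 bp and the *AP2* peak at +995 bp do not. These 10 windows were read after their peaks were known, and word and height were not tested against each other.

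The peak lists differed in size and depth before any locus was looked at. For *SUC2::CO:CIT aba1-6* they held 168 and 258 peaks in replicates 1 and 2, against 21054 and 22724 in the *SUC2::CO:CIT* replicates. Peak lists carry no read totals, so relative depth was taken from the most frequent background behind the peaks of each library. It was 3.57 and 0.77 fragments in *SUC2::CO:CIT aba1-6*, against 11.2 and 10.8 fragments in *SUC2::CO:CIT*. The study reports very low mapping rates for both libraries of the mutant, and holds that low DNA yields likely affected its results there. Mapped reads were not used here, so relative depth rests on the backgrounds alone. The *SUC2::CO:CIT aba1-6* peaks also lay in other sequence, with a mean GC content of 41.6% and 40.3% in the 200 bp around the summit, against 21.8% and 22.1% in *SUC2::CO:CIT*. Of the *SUC2::CO:CIT* peaks, 80.1% of those in replicate 1 overlapped one of replicate 2 by at least 1 bp, which is called shared below.

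At the 6 loci, the *SUC2::CO:CIT aba1-6* lists held 0 and 0 peaks, while the *SUC2::CO:CIT* lists held 16 and 14 (15 ± 1.41, SD, n = 2). No member had a peak in either *aba1-6* library, and of all protein-coding genes 2.83% had one in a window built in the same way. In *SUC2::CO:CIT*, 5 of the 6 loci had a peak in each replicate, against 65% of all protein-coding genes, and 3 of the 6 (*SMZ*, *TOE1* and *AP2*) had shared peaks, against 62.1%. One of the 6, *SNZ*, had no peak in either replicate, which was so for 22% of all genes. With only 6 loci, these counts are near those of the whole genome and do not set the family apart. The number of shared peaks at a single locus was highest at *TOE1* and at *AP2*, with 4 each, whereas 4.73% of all genes had at least 4 and the median gene had 1. These are the highest of 6 loci proposed with the peaks in view, and the weakest *AP2* pair overlapped by only 59 bp.

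**Figure D1:**
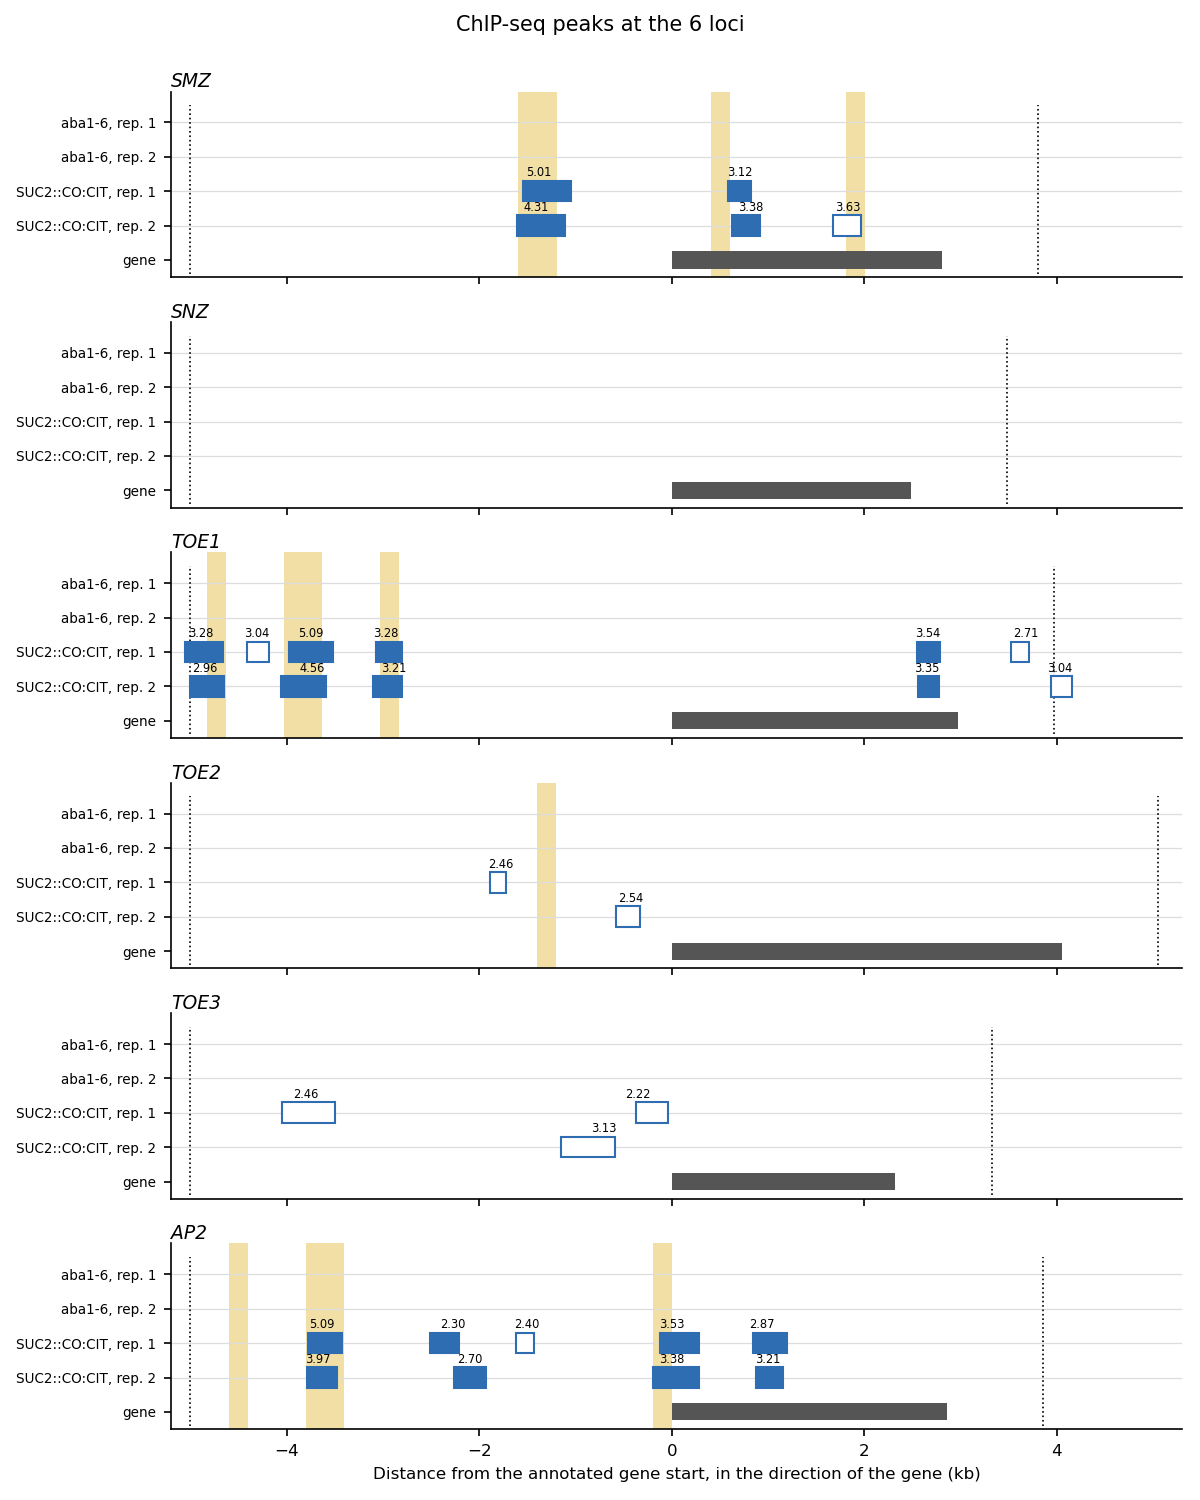
Peaks at each locus by distance from the gene start in kb, for *SUC2::CO:CIT aba1-6* (2 upper rows) and *SUC2::CO:CIT* (2 lower rows), with the fold enrichment above each peak, filled boxes for shared peaks and open boxes for peaks of 1 replicate. Dotted lines are the window edges, yellow bands are 200 bp tiles below 25% GC, and the grey bar is the gene; the *aba1-6* rows are empty at all 6 loci, and shared peaks stand at *SMZ* (2), *TOE1* (4) and *AP2* (4).

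*SMZ*, a repressor of *FT* named SCHLAFMÜTZE, lies at chr3:20373718-20376522 on the minus strand. It had 0 and 0 peaks in *SUC2::CO:CIT aba1-6*, against 2 and 3 in *SUC2::CO:CIT* replicates 1 and 2. The stronger shared peak was intergenic, with summits at −1380 and −1411 bp from the gene start. Its fold enrichment, which is the ratio of summit fragments to background fragments after adding 1 to each, was 5.01 and 4.31 (4.66 ± 0.49, SD, n = 2). These values rest on 60 fragments (95% exact Poisson interval 45.8 to 77.2) and 50 fragments over a background of 11.2 and 10.8, and the intervals cover counting error only. The peak ranked 760 of 21054 by p-value in replicate 1 and 2289 of 22724 in replicate 2, and its −log10 q-values were 21.2 and 15.2.

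The other shared *SMZ* peak lay in an intron, at +708 and +816 bp, and was weaker in each replicate, with fold enrichments of 3.12 and 3.38 from 38 and 39 fragments. Its summits were 108 bp apart, against 31 bp for the upstream peak. A further intronic peak at +1829 bp, with a fold enrichment of 3.63, was called only in replicate 2. All of them had *SMZ* as the gene with the nearest start, although the window also reaches AT3G54980 and *TON1A*, a gene of cortical microtubule organisation.

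*SNZ*, named SCHNARCHZAPFEN, lies at chr2:16388691-16391176 on the minus strand and encodes the protein most like SMZ. It had no peak in any of the 4 lists. The nearest peaks outside its window were 1083 kb and 185 kb away in *SUC2::CO:CIT aba1-6*, against 6.74 kb and 6.72 kb in *SUC2::CO:CIT*. Its neighbourhood also differed from that of *SMZ*: the next protein-coding gene upstream lay 747 bp away, against 4937 bp for *SMZ*, and no 200 bp tile of its window was below 25% GC. Whether the CO fusion bound there below the caller's threshold cannot be told from peak lists.

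*TOE1*, which restrains flowering in young plants, lies at chr2:12225656-12228624 on the minus strand and had 0 and 0 peaks in *SUC2::CO:CIT aba1-6*, against 6 and 5 in *SUC2::CO:CIT*. Of these, 4 were shared, 3 of them upstream and 1 in the 3′ untranslated region. The strongest, at −3752 and −3730 bp, had fold enrichments of 5.09 and 4.56 (4.83 ± 0.37, SD, n = 2) from 61 fragments (46.7 to 78.4) and 53 fragments, with −log10 q-values of 21.9 and 17.1. Its summits in the replicates were 22 bp apart, and it ranked 668 of 21054 and 1553 of 22724.

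The remaining shared peaks of *TOE1* were of like height to each other and lower than the strongest. At −2975 and −2889 bp the fold enrichments were 3.28 and 3.21, at −4897 and −4853 bp they were 3.28 and 2.96, and in the 3′ untranslated region, at +2664 and +2646 bp, they were 3.54 and 3.35. Another 3 peaks came from 1 replicate each, namely those of replicate 1 at −4306 bp (3.04) and +3676 bp (2.71) and that of replicate 2 at +4027 bp (3.04). No other gene, coding or not, lies in this window, since the next protein-coding gene upstream is 7250 bp away, so each of these peaks had *TOE1* as its nearest start.

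*TOE2*, the closest known partner of *TOE1* in delaying flowering, lies at chr5:24207689-24211743 on the plus strand. It had 0 and 0 peaks in *SUC2::CO:CIT aba1-6*, against 1 and 1 in *SUC2::CO:CIT*, but the *SUC2::CO:CIT* peaks did not coincide. Replicate 1 had a peak at −1774 bp with a fold enrichment of 2.46 (−log10 q of 4.14), and replicate 2 had one at −422 bp with 2.54 (4.38). Each was among the weaker peaks of its library, since 88.4% and 83.8% of the listed peaks had a higher −log10 p.

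*TOE3* lies at chr5:26801949-26804271 on the minus strand, with 0 and 0 peaks in *SUC2::CO:CIT aba1-6*, against 2 and 1 in *SUC2::CO:CIT*. The peak of replicate 1 nearest to the start was at −357 bp with a fold enrichment of 2.22, and that of replicate 2 was at −711 bp with 3.13. They did not overlap. The other replicate 1 peak, at −3799 bp with 2.46, was nearer to the start of *DEAR2*, an ERF-type transcription factor gene, than to that of *TOE3*. As at *TOE2*, no peak at this locus was found in both replicates.

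*AP2*, the floral homeotic gene after which the family is named, lies at chr4:17400610-17403469 on the plus strand and had 0 and 0 peaks in *SUC2::CO:CIT aba1-6*, against 5 and 4 in *SUC2::CO:CIT*, with 4 shared. The strongest shared peak lay at −3636 and −3681 bp, with fold enrichments of 5.09 and 3.97 (4.53 ± 0.79, SD, n = 2) from 61 fragments (46.7 to 78.4) and 46 fragments. It was the least even of the 3 strongest peaks between replicates, ranking 668 of 21054 and 4149 of 22724. Its summits stood nearer to the start of *LEJ2* (AT4G36910), at −3495 and −3450 bp from it, so that this peak cannot be given to *AP2* by position alone.

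Among the members, *AP2* alone had a peak of both replicates at the gene start itself, with summits at +4 and 0 bp, in the 5′ untranslated region, and fold enrichments of 3.53 and 3.38. A further shared peak lay in the transcribed region at +936 bp (2.87, coding exon) and +995 bp (3.21, intron). The shared peak at −2279 and −2096 bp was the weakest of the 10 shared peaks of the family, with fold enrichments of 2.30 and 2.70 and an overlap of 59 bp. A peak of replicate 1 alone stood at −1509 bp with 2.40.

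**Figure D2:**
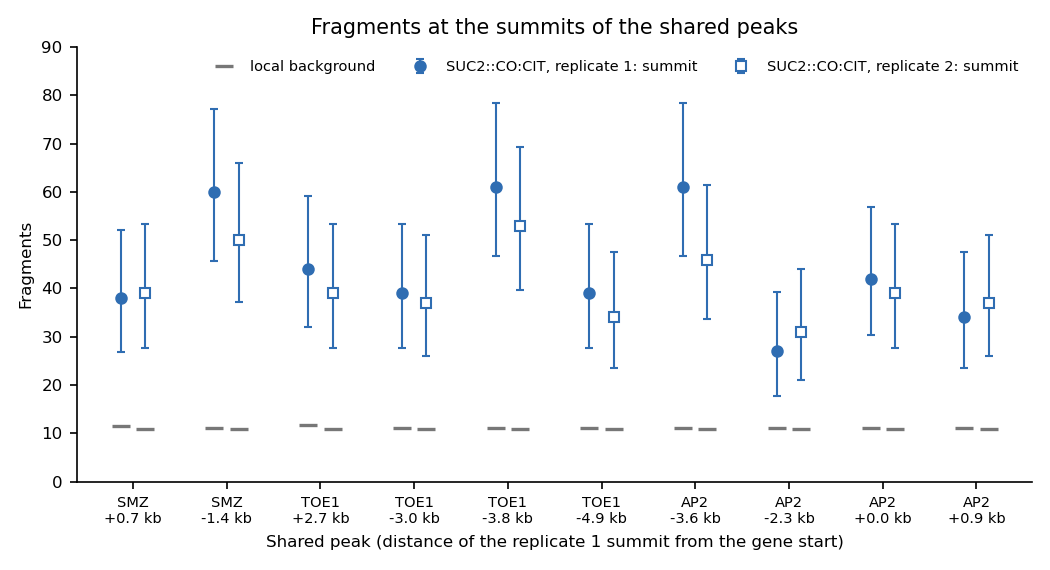
Fragments at the summit of the 10 shared peaks in *SUC2::CO:CIT* replicate 1 (filled circles) and replicate 2 (open squares), with 95% exact Poisson intervals, and the local background as grey dashes. The upstream peaks of *SMZ*, *TOE1* and *AP2* with 60, 61 and 61 fragments in replicate 1 are the highest, and in each pair the intervals of the replicates overlap.

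Across the family the peaks found in both replicates thus fell into a group of 3 upstream peaks, with fold enrichments of 5.01 to 5.09 in replicate 1 and 3.97 to 4.56 in replicate 2, and 7 lower ones with 2.30 to 3.54 and 2.70 to 3.38. The groups were named after their heights were seen, so their separation by height is a description. Counting intervals overlap between the groups in each replicate. In replicate 1 the strongest *SMZ* peak had 60 fragments (45.8 to 77.2), against 44 (32.0 to 59.1) at the *TOE1* peak in the 3′ untranslated region. In replicate 2 the strongest *AP2* peak had 46 fragments (33.7 to 61.4), against 39 (27.7 to 53.3) at the *SMZ* intron peak. Replicate summits were 4 to 183 bp apart at the members, against a median of 54 bp (interquartile range 23 to 122 bp) over 17399 overlapping pairs of the whole lists. The peaks did not keep to 1 position in the genes, and 11 of 16 in replicate 1 and 8 of 14 in replicate 2 had their summit upstream of the gene start. By design 5000 bp of each window lies upstream, out of 8323 bp (*TOE3*) to 10055 bp (*TOE2*). The same share was not taken over all genes, so no preference for upstream positions is read from these counts.

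Reproducibility was also described with the irreproducible discovery rate (IDR), the estimated share of irreproducible regions among those ranked as high or higher. With a global IDR up to 0.1 accepted, a retained region was present at 3 of the 6 loci, again *SMZ*, *TOE1* and *AP2*, against 43.2% of all protein-coding genes. The strongest peaks had values of 0.00038 at *SMZ*, 0.00016 at *TOE1* and 0.0012 at *AP2*. The *SMZ* intron peak (0.067), the *TOE1* peaks at −2975 bp (0.069) and in the 3′ untranslated region (0.038) and the *AP2* peak at the gene start (0.038) also passed. The *TOE1* peak at −4897 bp (0.11) and the *AP2* peaks at +936 bp (0.13) and −2279 bp (0.26) did not. These values come from a model written for this purpose and not from the tool used by the authors. Fitted by direct likelihood instead, the model put the *SMZ* intron peak at 0.075 and the *TOE1* peak at −2975 bp at 0.078, and both would miss a limit of 0.05 in either fit.

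The base composition of the member peaks was less extreme than that of the libraries they came from. In the 200 bp around the summit, GC content averaged 25.2% in replicate 1 (17.5% to 33%) and 24.1% in replicate 2 (17% to 32.5%), against 21.8% and 22.1% over all peaks. Below 25% GC lay 8 of 16 and 7 of 14 member summits, against 78.1% and 75.4% of all summits. The lowest values belonged to the strongest peaks, with 20.5% and 20% at *SMZ*, 18.5% and 19.5% at *TOE1* and 17.5% and 17% at *AP2*. The highest were 33% and 31% in replicate 1, at the *AP2* peak at −1509 bp and the *TOE2* peak at −1774 bp, and 32.5% in replicate 2, at the *AP2* peak at −2096 bp. All peaks of a library share its fragments, so this order across peaks is given without a test.

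When each window was cut into 200 bp tiles, those below 25% GC numbered 4 of 44 at *SMZ*, 0 of 42 at *SNZ*, 4 of 44 at *TOE1*, 1 of 50 at *TOE2*, 0 of 41 at *TOE3* and 4 of 44 at *AP2*. The loci with 4 such tiles were the 3 with shared peaks, and the loci with 0 or 1 were the 3 without. In *SUC2::CO:CIT* replicates 1 and 2, peaks touched 3 and 3 of the AT-rich tiles of *SMZ*, 4 and 4 of those of *TOE1* and 3 and 3 of those of *AP2*, but not the single one of *TOE2*. None was touched by a peak of *SUC2::CO:CIT aba1-6*.

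The same relation ran through all genes and was not particular to the family. A shared peak was present at 12.2% of the 7099 protein-coding genes with no AT-rich tile, at 51.9% of the 5231 with 1 and at 94.3% of the 2349 with 4. Genes with 4 AT-rich tiles had a mean of 1.74 shared peaks, close to the 2 of *SMZ*, and 2.81% of them reached the 4 shared peaks of *TOE1* and *AP2*. Base composition can alter how well DNA is amplified and sequenced, and its part in the peaks of these loci was not tested.

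**Figure D3:**
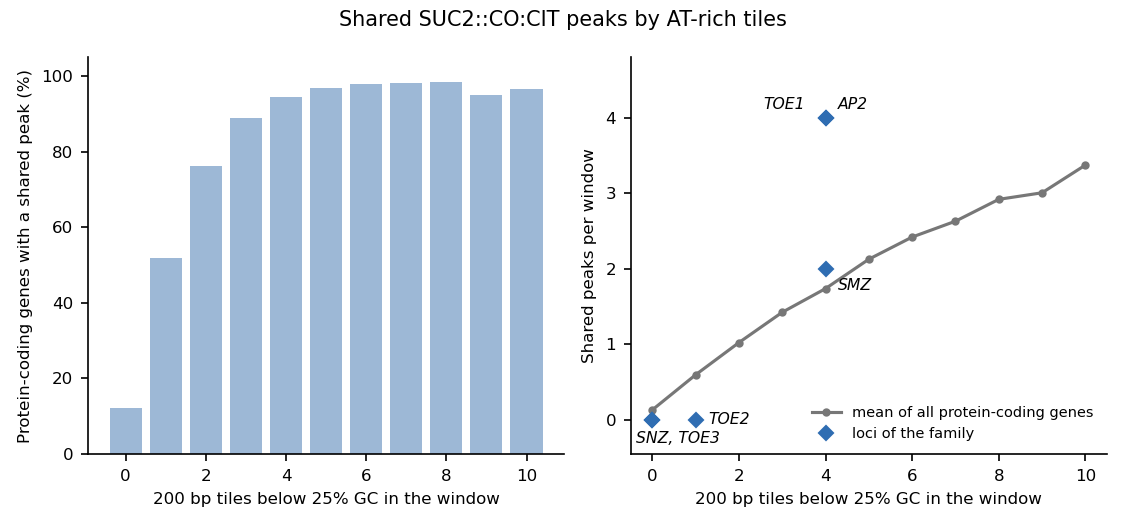
Left, share of protein-coding genes with a shared *SUC2::CO:CIT* peak by the number of 200 bp tiles below 25% GC in their window (bars, in %, shown up to 10 tiles). Right, mean number of shared peaks per gene (grey line) and the 6 loci (blue diamonds): *TOE1* and *AP2* coincide at 4 tiles and 4 peaks, above the mean of 1.74, *SMZ* lies near it with 2, and *SNZ*, *TOE3* and *TOE2* lie at 0 peaks.

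CO is known to contact TGTG in the CO-responsive elements of *FT*, and its NF-Y partners are known to bind CCAAT. In the 100 bp around the summit, TGTG on either strand (TGTG or CACA) was found at 7 of 16 member peaks in replicate 1 (43.8%) and at 4 of 14 in replicate 2 (28.6%), against 35.0% and 35.4% of all peaks. The member shares lie on either side of the background. The longer word CCACA (or TGTGG) was found at 2 of 16 and 1 of 14, against 5.60% and 5.70%, at the peak in the 3′ untranslated region of *TOE1* in each replicate and at the *AP2* peak at +936 bp in replicate 1. CCAAT (or ATTGG) was found at 2 of 16 and 2 of 14, against 13.8% and 13.9%, among them the *AP2* peak at the gene start in each replicate. The longer form TGTGNNATG of the CO-responsive element, and the form with 1 more free base before ATG, both searched on either strand and both containing TGTG, were found at none, against 0.73% to 0.93% of all peaks. A word in such a window is not a bound site, and its lack says only that these letters are not there.

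The edges of the windows took in or left out a few peaks. The *TOE1* peak of replicate 2 at +4027 bp and the shared *TOE1* peak at −4897 and −4853 bp reach past an edge. Just outside, *AP2* had peaks 29 bp and 26 bp past the downstream edge in replicates 1 and 2, with fold enrichments of 2.30 and 2.54, and *TOE1* had peaks 0.99 kb and 1.04 kb past the upstream edge, with 3.20 and 3.72.

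The empty *SUC2::CO:CIT aba1-6* lists at these loci were set against the depth of those libraries. The background of *SUC2::CO:CIT aba1-6* replicate 1 was 31.9% and 33.0% of that of the *SUC2::CO:CIT* replicates, and that of replicate 2 was 6.89% and 7.11%. Scaled by these ratios, the strongest peaks of *SMZ*, *TOE1* and *AP2* in *SUC2::CO:CIT* replicate 1 would hold 19.2, 19.5 and 19.5 fragments at the depth of *aba1-6* replicate 1, where the listed peak with the fewest had 11. At the depth of *aba1-6* replicate 2 they would hold 4.13, 4.20 and 4.20 fragments, below the fewest listed there, which was 5.

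With Poisson counting error alone, and with enrichment and background kept in proportion, 9.67 of the 16 and 9.77 of the 14 member peaks would be expected to pass at the depth of *aba1-6* replicate 1, and 2.48 and 2.18 at that of replicate 2, whereas 0 were listed in each. Over all shared peaks the same sum gave 11451 and 11643 at the depth of *aba1-6* replicate 1 and 2817 and 2893 at that of replicate 2, whereas 10 and 11, and 14 and 14, overlapped an *aba1-6* peak. At replicate 2 depth most member peaks would thus not be detectable, and a missing peak there does not show a missing site. At replicate 1 depth the sums presume peaks as enriched as in *SUC2::CO:CIT*. They start from peaks that passed the caller there, so they run high, and no test was made of them. Both *aba1-6* libraries were shallower than both *SUC2::CO:CIT* libraries and had other GC content. Genotype can therefore not be told apart from library depth or mapping rate at these loci. Over the whole genome, the authors subsampled the reads of the other genotype to similar mapping rates and still called more peaks than in the mutant. They also saw no read enrichment around gene starts in the mutant. At the *FT* promoter, their ChIP with quantitative PCR gave less of the CO fusion in the mutant. They propose that low binding could account for part of the near absence of reproducible peaks there.

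**Figure D4:**
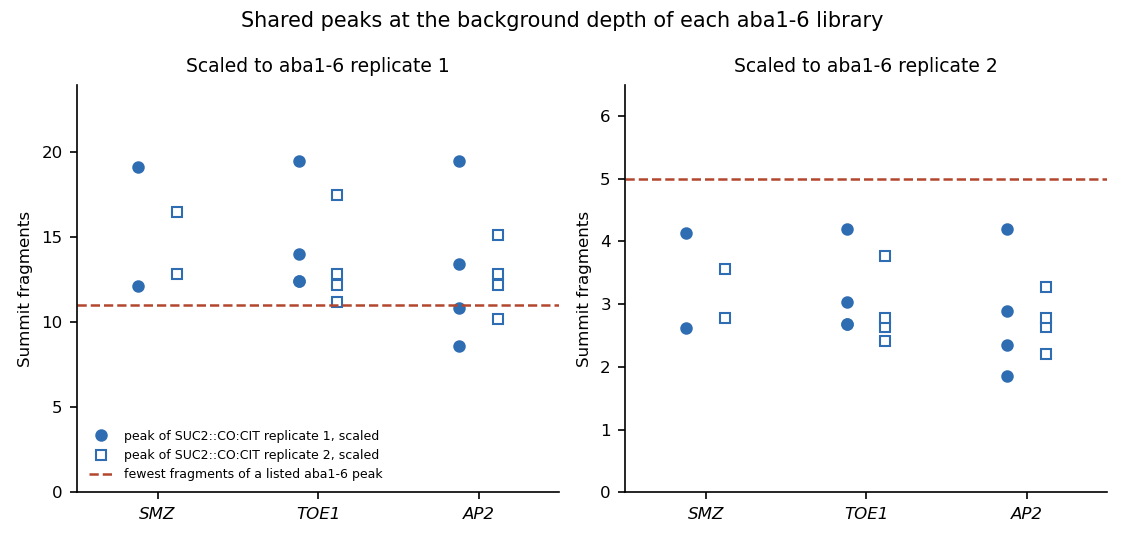
Summit fragments of the shared peaks at *SMZ*, *TOE1* and *AP2* in *SUC2::CO:CIT* replicate 1 (filled circles) and replicate 2 (open squares) after scaling to the background of *SUC2::CO:CIT aba1-6* replicate 1 (left) and replicate 2 (right). The dashed line is the fewest fragments of a peak listed in that *aba1-6* library (11 and 5): most scaled peaks lie above it on the left and all 20 lie below it on the right.

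Genes that work with these repressors were looked up in windows of the same kind. All 5 miR172 genes, *MIR172A* to *MIR172E*, had a shared *SUC2::CO:CIT* peak, with 1 each. All 5 genes for TOPLESS-type corepressors, through which AP2-type repressors are known to act, had 1 or 2. Of the floral integrators on which the pathway converges, *FT*, *TSF* and *FUL* had a shared peak and *SOC1* did not. *TEM1* and *TEM2*, which encode repressors of *FT* of another class, had 1 and 2. Of 11 other genes of the double AP2 domain family, which mostly act in meristem and embryo growth, 6 had a shared peak, and *AIL7* and *ADAP* had no peak in either replicate. No gene of these lists had a peak in *SUC2::CO:CIT aba1-6*, and with 62.1% of all genes holding a shared peak, the counts for lists this short set none of them apart.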

How the data were processed

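Each of the 4 ChIP libraries contributed 1 list of peaks. Following the submitters' notes and the methods of the study, reads were processed with fastp, FastQC, Bowtie2, MACS2, deepTools and ChIPseeker on TAIR10, with no versions given in the sources used here. The authors called peaks in each library against its input, so the 4 input libraries enter only through that call. The deposited fold enrichment is a ratio with a pseudocount of 1, the −log10 values deposited beside it are the p-value and q-value of macs2, and of the other deposited columns the score was left aside and the summit offset gave positions. No IDR filter or exclusion list was applied here before peaks were counted.

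The members and lists were chosen with earlier results of these data known. All members, their peaks and nearest genes are named, and genes of other lists only where 5 or fewer are counted. Summit fragments (a whole number) and background (a Poisson rate) were solved from the fold and the p-value together, within a relative tolerance of 0.001, and 99.97% of 3000 simulated peaks were recovered. Relative depth is the ratio of genome backgrounds. IDR was fitted with a copula mixture model written here (expectation maximisation, tested on simulated data) over the 16315 merged regions with a peak of both replicates, of which 8992 were retained, a number that depends on the implementation. Sequences and gene models are from RefSeq, TAIR10.1, and proteins were aligned from annotated coding sequences. Python 3.11.15, numpy 2.4.6, pandas 2.3.3, scipy 1.17.1, biopython 1.88 and matplotlib 3.10.9 were used. Alternatives were a narrower window, summits inside the window, stricter q-values, more overlap, nearest starts, other GC widths and IDR settings, and single libraries.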

Additional observations from a re-analysis of the deposited data

How the results depend on the processing

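The 3 loci with shared peaks were the same in number under every alternative run. When an overlap of at least 50% of the shorter peak was required, shared peaks at the members numbered 9 in place of 10. With the window narrowed to the gene and 1000 bp upstream, the mean number of *SUC2::CO:CIT* peaks at the members was 6, shared peaks numbered 4, and 34.4% of all genes had one. At a −log10 q of at least 10, these values were 4.5, 3 and 25%, and mean summit GC was 20.2%, and it was 23.5% at a −log10 q of at least 5 and 23.7% in the 100 bp around the summit. When only peaks whose nearest start is that of the gene were counted, 35.7% of all genes had a shared peak. With either *SUC2::CO:CIT* library alone, the members had 14 to 16 peaks and a mean GC of 24.1% to 25.2%, and with either *aba1-6* library alone they had 0. Leaving out a library gives no value for shared peaks or IDR. Without the pseudocount, the fold enrichment of the strongest peaks in replicate 1 was 5.37 at *SMZ* and 5.46 at *TOE1* and *AP2*. With the global IDR limit at 0.05, a retained region was still present at 3 loci. A direct likelihood fit of the IDR model, added after seeing the data, retained 8689 regions in place of 8992, with 42.1% of genes and again 3 loci. No paired analysis was possible because no result comes from a test. At the depth of *aba1-6* replicate 2 most of the member peaks could not be shown.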
